A study of Homo sapiens with 4 samples.

Results

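Among human embryonic stem cell (hESC) barcodes with at least 500 detected genes, 399 of 5440 drew under 2% of their UMIs from mitochondrial genes. UMIs are random tags by which each captured RNA molecule is counted a single time, and a barcode stands for the content of 1 droplet. These mitochondria-poor barcodes were chosen by 2 measured values, the number of genes detected and the share of UMIs from the 13 genes whose symbols start with MT-. The hESC tables held 13516 barcodes in all, and the 4 tables of the series held 19074, with 14930662 to 18193164 UMIs per library. The same low mitochondrial share was found in a further 515 and 616 hESC barcodes with fewer than 500 genes, which were left out.

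The cells were KhES1, an established hESC line, grown on Matrigel in mTeSR-1 medium and dissociated with TrypLE Express, with the ROCK inhibitor Y27632 added on the first day after passage. There were 2 such libraries, hESC 1 and hESC 2, made with the 10x Genomics Chromium 3′ kit. The other 2 libraries, blastoid 3 and blastoid 4, held cells of blastoids, which are blastocyst-like aggregates formed here from KhES1 in iBlastoid medium with a hydrogel. Groups were taken from the sample descriptions, because all 4 titles carry the same day. All samples share 1 cell line, and nothing says that the libraries came from separate cultures, so p-values rest only on these libraries, whose spread may be technical. In the gene tests the mean difference between the hESC libraries was taken out. Those p-values measure how differences between classes of barcodes varied from 1 hESC library to the other.

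Mitochondria keep a small genome of their own, whose transcripts stay inside the organelle and are polyadenylated, so that they are captured by oligo-dT beads together with cytoplasmic mRNA. Other RNAs are also held in place: long noncoding RNAs such as MALAT1 in the nucleus, and mRNAs of secreted and membrane proteins at the endoplasmic reticulum (ER), where they are translated. Ribosomal protein mRNAs are translated on free cytoplasmic ribosomes. A low mitochondrial share in a droplet can therefore be set beside the levels of RNAs from other cell compartments.

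The mitochondria-poor barcodes were compared with a shallow reference, which was the hESC barcodes of at least 500 genes, 600 to 2000 UMIs and 5% or more mitochondrial UMIs. There were 149 mitochondria-poor and 267 reference barcodes in hESC 1, and 250 and 649 in hESC 2. The median depth was 1154 and 1160 UMIs in the mitochondria-poor barcodes and 1054 and 1009 in the reference (hESC 1 first, here and below). The median number of genes was 645 and 676 against 618 and 627, so the classes were of similar depth. A deep class of 1769 and 2117 barcodes, with over 2000 UMIs and 5% or more mitochondrial UMIs, gave a second comparison. Every level below is a number of UMIs per 1000000 non-mitochondrial UMIs (CPM) summed over the barcodes of a class in 1 library. A level is thus a share, and a fall of some genes raises the share of the others. The summed non-mitochondrial UMIs were 188084 and 344009 for the mitochondria-poor class, 270287 and 629732 for the reference, and 11238842 and 12765971 for the deep class. At this depth 3 UMIs correspond to a level of 16 in hESC 1 and 8.72 in hESC 2.

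The 2 hESC tables had 1317 barcodes in common, but only 1 mitochondria-poor barcode of each was among them. In the reference, 18 barcodes of hESC 1 and 1 of hESC 2 were shared. A doublet caller marked no mitochondria-poor barcode, although in hESC 2 it marked 0 of 3175 barcodes and so had not worked there.

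The mitochondria-poor share was 6.58% of barcodes with at least 500 genes in hESC 1 (exact Clopper-Pearson 95% interval 5.59 to 7.68%) and 7.87% in hESC 2 (6.96 to 8.87%). In blastoid 3 it was 0.481% (11 of 2289 barcodes, 0.24 to 0.858%) and in blastoid 4 it was 0.769% (15 of 1951, 0.431 to 1.26%). Both hESC libraries lay above both blastoid libraries, with means of 7.23% ± 0.916 and 0.625% ± 0.204 (SD, n = 2 each). The exact two-sided permutation test gave p = 0.33, the smallest value that 2 libraries against 2 allow. Intervals here and below cover counting error only.

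Within the 600 to 2000 UMI range, 103 of 435 barcodes of hESC 1 (23.7%) had under 0.5% mitochondrial UMIs. A further 18 had 0.5 to 1%, 18 had 1 to 2%, 10 had 2 to 3%, 19 had 3 to 5%, 112 had 5 to 10% and 155 had 10 to 20%. In hESC 2, 156 of 973 (16%) had under 0.5%, and the counts in the further ranges were 44, 26, 21, 77, 332 and 317. These ranges differ in width, and the one under 0.5% held more barcodes than any other range below 5% in both libraries. The median mitochondrial share among the mitochondria-poor barcodes was 0.261% and 0.304%, and 12 and 14 of them had no mitochondrial UMI. The deposited tables reached 20% and no further, so barcodes richer in mitochondrial RNA were not analysed here.

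**Figure D1:**
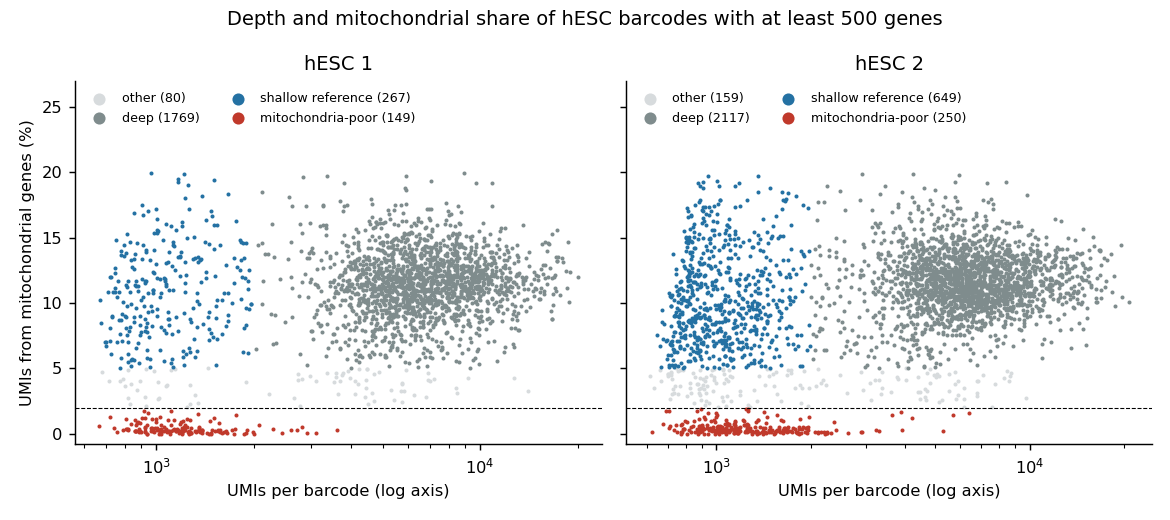
UMIs per barcode (log axis) against the percentage of UMIs from mitochondrial genes for hESC barcodes with at least 500 genes, with 1 point per barcode, colored by class, and the 2% limit as a dashed line. The 399 mitochondria-poor barcodes lie along the bottom, mostly at the depth of the shallow reference and below the depth of most deep barcodes.

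All 13 mitochondrial genes were low, which the choice of barcodes fixed. Together they were at 3740 and 4681 per 1000000 UMIs in the mitochondria-poor barcodes and 111596 and 105845 in the reference. In the mixture of mitochondrial transcripts, some genes had similar shares in both classes and others did not. MT-ATP6, a subunit of ATP synthase, made up 17.8% and 16.2% of mitochondrial UMIs in the mitochondria-poor barcodes and 17.1% and 16.7% in the reference. MT-CO3, a subunit of cytochrome c oxidase, made up less, with 14.6% and 14.5% against 17.9% and 18.8%. MT-ND4 made up more, with 8.64% and 9.77% against 7.48% and 7.09%. MTRNR2L12 and MTRNR2L8, nuclear genes nearly identical to the mitochondrial ribosomal RNA, gave log2 differences of -4.44 and -3.68. Reads of these genes cannot be told apart from mitochondrial RNA, so they count as part of what chose the barcodes.

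Of 6639 non-mitochondrial genes tested, 725 (10.9%) differed between mitochondria-poor and reference barcodes at an adjusted p under 0.05 in the edgeR quasi-likelihood test with Benjamini-Hochberg adjustment. Of these, 154 (2.32% of genes tested) were higher and 571 (8.6%) were lower in the mitochondria-poor barcodes, and the median log2 difference over all genes was -0.21. By list, 6 of 8 nuclear noncoding RNAs and 18 of 24 ER and secretory genes were lower, 70 of 84 ribosomal protein genes and 8 of 26 histone genes were higher, and stress and p53 target genes gave no call. The balance of directions depended on scaling: with TMM scaling, which centres the bulk of genes (median -0.02), 396 genes (5.96%) were higher and 376 (5.66%) lower. Of all genes tested, 895 (13.5%) had mitochondria-poor sums above both reference sums and 2427 (36.6%) below both. Under TMM scaling the share of calls that were higher went from 21.2% to 51.3%. Leaving out the mitochondria-poor sum of 1 library lowered the number of calls to 321 (without hESC 1) or 173 (without hESC 2).

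Against the deep class, 1597 of 6639 genes (24.1%) were called, with 322 (4.85%) higher and 1275 (19.2%) lower, and TMM scaling gave 1475 (22.2%), with 783 (11.8%) higher and 692 (10.4%) lower. Of all genes tested, 15.4% had mitochondria-poor sums above both deep sums and 49.8% below both. This comparison uses the same mitochondria-poor sums as the first, so its values are set beside those of the reference and not read as separate evidence.

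MALAT1, a nuclear long noncoding RNA at chromosome 11, 65497688 to 65506516 (GRCh38), was at 1685 and 2102 CPM in the mitochondria-poor barcodes. It was at 5905 and 6900 in the reference and at 6307 and 5708 in the deep class. Both mitochondria-poor sums lay far below all other sums, with a log2 difference from the reference of -1.74 ± 0.07 (SE, edgeR adjusted p = 3.98e-19). The size of the MALAT1 difference depended on the mitochondrial limit, at -0.64 with a limit of 3% and -2.38 with a limit of 1%. Per barcode, the MALAT1 share was below the median of the reference in 137 of 149 mitochondria-poor barcodes of hESC 1 and 239 of 250 of hESC 2. Its lower quartile among the mitochondria-poor barcodes was 0% in both libraries.

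Of the 8 nuclear noncoding RNAs tested, MALAT1 among them, 6 were called lower and none higher, against 8.6% of all genes called lower, and the median log2 difference was -1.88. SNHG14, the host transcript of imprinted small nucleolar RNAs at chromosome 15, 24978583 to 25419462, was at 197 and 328 CPM in the mitochondria-poor barcodes and at 1099 and 1318 in the reference. The difference was -2.14 ± 0.11 on the log2 scale (edgeR adjusted p = 3.92e-16), with no overlap between the classes. KCNQ1OT1, an imprinted antisense RNA that stays in the nucleus, fell (log2 difference -2.71), as did FTX, a noncoding gene of the X inactivation centre (-2.29). NEAT1, the scaffold of nuclear paraspeckles, and TUG1 also fell (-1.91 and -1.86). These 4 rested on 10 to 15 UMIs in the mitochondria-poor barcodes. PVT1 and MIAT were at -1.51 (adjusted p = 0.0623) and -1.36 (adjusted p = 0.0882) and were not called.

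The ER and secretory list held chaperones, translocon subunits, oligosaccharyltransferase subunits, laminins and membrane receptors. Of its 24 genes, 18 were called lower (8.6% of all genes were) and none higher, and the median log2 difference was -1.52. With TMM scaling 15 were lower and 2 higher. Summed over the list, the level was 2818 and 3067 CPM in the mitochondria-poor barcodes against 5180 and 5907 in the reference and 5609 and 5977 in the deep class. The list's share was below the reference median in 135 of 149 and 233 of 250 mitochondria-poor barcodes. Without the mitochondria-poor sum of hESC 2, 10 genes of the list were called lower, and DESeq2 called 11.

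HSP90B1, the ER chaperone GRP94 at chromosome 12, 103930107 to 103953645, was at 79.8 and 169 CPM in the mitochondria-poor barcodes. In the reference it was at 562 and 743, and in the deep class at 688 and 755. The classes did not overlap, and the log2 difference from the reference was -2.31 ± 0.16 (edgeR adjusted p = 1.75e-12). HSPA5, the chaperone BiP at chromosome 9, 125234853 to 125241330, was at 26.6 and 37.8 against 126 and 203, a difference of -2.38 ± 0.29 (edgeR adjusted p = 3.36e-07). The lectin chaperones CALR and CANX also fell (log2 differences of -1.67 and -1.58), as did the disulfide isomerases PDIA4 (-1.81), PDIA3 (-1.7) and PDIA6 (-0.77). The size for CALR differed between the libraries, with a log2 ratio of -2.5 in hESC 1 and -1.39 in hESC 2.

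Parts of the translocation machinery did not move together. RPN2, an oligosaccharyltransferase subunit, was at 37.2 and 26.2 CPM against 166 and 211 in the reference, with a log2 difference of -2.7 ± 0.3. SEC61A1, which forms the translocon pore, and RPN1 also fell (-2.0 and -1.45), on 5 and 12 UMIs in the mitochondria-poor barcodes. In barcodes of matched depth (600 to 2000 UMIs) the call for SEC61A1 was lost (-1.69, edgeR adjusted p = 0.0556). In contrast SEC61B, a small tail-anchored translocon subunit, was at 532 and 424 against 388 and 349, with both mitochondria-poor sums above both reference sums. Its log2 difference of 0.35 was not called (edgeR adjusted p = 0.0738), but it was called higher with TMM scaling (0.55, adjusted p = 0.00293). At matched depth SEC61B was also called higher (0.43, edgeR adjusted p = 0.0256). SEC61G, also tail-anchored, was at 0.24 without a call and at 0.44 with one under TMM scaling. SSR3, SSR4, DDOST and SPCS1 lay between -0.34 and -0.12 and were not called, whereas SSR1, SSR2, SPCS2 and P4HB were called lower.

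mRNAs of matrix and surface proteins in the list were all called lower. ITGB1, an integrin chain that binds laminin, gave a log2 difference of -1.84, APP, the amyloid precursor protein, -1.83, and LAMC1, a laminin chain, -2.69. LAMB1, another laminin chain, had 0 UMIs in the mitochondria-poor barcodes of both libraries and 3 and 16 in the reference. Against a floor of 3 UMIs over both libraries it was at least 3.74-fold lower, and the median of the list stayed at -1.52 with this gene at its bound.

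**Figure D2:**
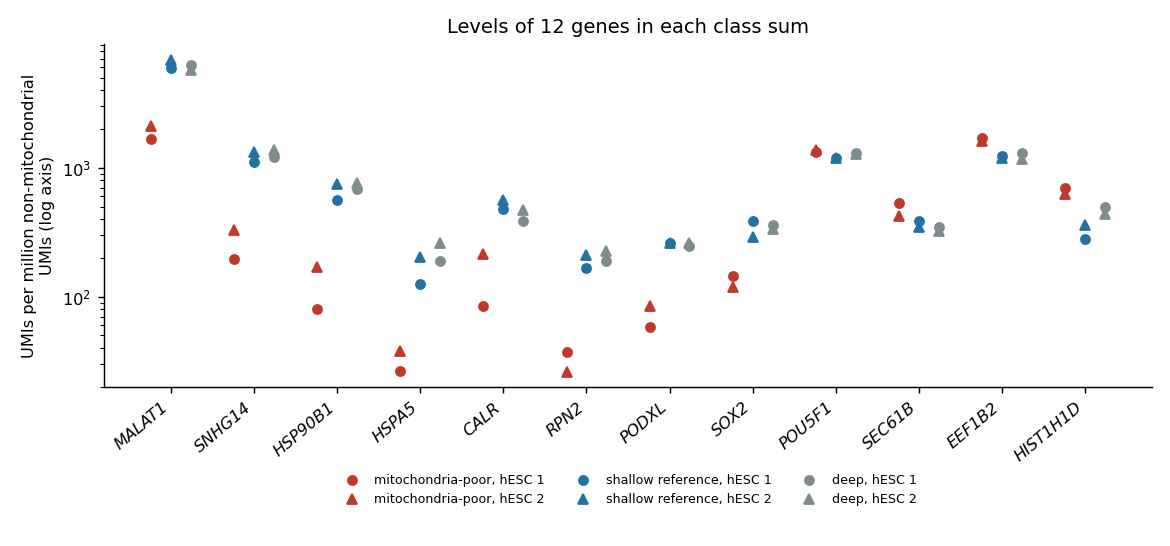
Levels of 12 genes in UMIs per 1000000 non-mitochondrial UMIs (log axis), with 1 point per class sum, colored by class and shaped by library. MALAT1 at 1685 and 2102, and HSP90B1 at 79.8 and 169, lie below their reference sums, POU5F1 lies near the reference level, and HIST1H1D at 702 and 622 lies above.

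Among all genes called lower, with a mean log2 level of at least 6 and sums that did not overlap, the 10 largest falls included MTRNR2L12 and MTRNR2L8. Of the other 8, SEC63, a translocon partner of BiP at chromosome 6, 107867756 to 107958189, was at 5.32 and 8.72 CPM (1 and 3 UMIs) against 92.5 and 103 in the reference, and fell by 3.72 ± 0.48 (edgeR adjusted p = 8.91e-07). MIA3, which helps load large cargo at ER exit sites, was at -3.17 on 4 UMIs. RRBP1, a ribosome-binding protein of the ER, was at -3.08, with 0 UMIs in hESC 1 and 9 in hESC 2. IGF1R, the receptor for insulin-like growth factor 1, was at -2.91. ATP2B1, a plasma membrane calcium pump, had 3 UMIs, and its pooled log2 ratio was -3.61 (counting interval -5.93 to -2.0). LRP1, an endocytic receptor, also had 3 UMIs, with a pooled ratio of -3.08 (-5.42 to -1.44). SPTBN1, a spectrin of the membrane skeleton, was at -3.37, and BOD1L1, a nuclear protein of replication fork protection, at -3.32. Against the deep class IQGAP2, a cytoskeletal scaffold, took the place of IGF1R among the 10.

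Genes known for transcripts with retained introns that stay in the nucleus, mostly splicing factors and regulators, fell in part. Of 18 tested, 10 were called lower (8.6% of all genes were) and none higher, with a median of -0.61. With TMM scaling 4 were lower (5.66% of all genes were) and 1 was higher, and DESeq2 called 3 lower. Fewer were also called lower without the mitochondria-poor sum of hESC 1 or hESC 2. OGT, the O-GlcNAc transferase, was at 16 and 20.3 CPM against 85.1 and 79.4 in the reference, a log2 difference of -2.12. NKTR, a cyclophilin-related protein (-1.54), and the splicing factors PNN (-0.78) and SRSF2 (-0.75) also fell. SRSF3 was at 1180 and 1020 against 1054 and 996, a difference of 0.08 that was not called.

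Ribosomal protein mRNAs rose. Of 84 tested, 70 were called higher and none lower, against 2.32% of all genes called higher, with a median log2 difference of 0.29 and a range of -0.04 to 0.60. TMM scaling gave 80 higher and none lower. In sum they were at 348137 and 322151 CPM in the mitochondria-poor barcodes, at 283880 and 263207 in the reference, and at 263282 and 244938 in the deep class. The share was above the reference median in 143 of 149 and 227 of 250 mitochondria-poor barcodes. RPL37, a protein of the large subunit, was at 6189 and 5605 CPM against 4199 and 3987, with a difference of 0.52 ± 0.04 (edgeR adjusted p = 5.7e-11). RPL11, which also binds MDM2, was at 5157 and 4872 against 3744 and 3524. RPL4 was the lowest of the list, at 909 and 1201 against 1132 and 1118. Ribosomal protein genes have many processed pseudogenes, so single members can share reads with copies. Without the mitochondria-poor sum of hESC 2, 40 of these genes were called, and without the library as a block 31 were.

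Of 16 genes in the translation factor list, 4 were called higher and 2 lower, against 2.32% and 8.6% of all genes. The median was 0.13, and with TMM scaling 7 were higher and none lower. EEF1B2, a nucleotide exchange factor, was at 1696 and 1610 CPM against 1236 and 1181, a difference of 0.45 ± 0.07 (edgeR adjusted p = 1.29e-05). TPT1 was higher by 0.30, NACA by 0.20 and EEF1A1 by 0.19. EIF3E (-0.4) and PABPC1 (-0.35) fell with edgeR adjusted p = 0.0236 and 0.0128, but neither was called with TMM scaling (-0.20 and -0.15).

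Nuclear genes for the respiratory chain and ATP synthase gave no call in the lower direction against the reference. Their mRNAs are translated in the cytoplasm or at the mitochondrial surface. Of 80 tested, 10 were called higher (2.32% of all genes were) and none lower, with a median of 0.17. TMM scaling gave 31 higher (5.96% of all genes) and none lower. Their summed level was 33974 and 33563 CPM in the mitochondria-poor barcodes against 30664 and 29533 in the reference and 27647 and 27186 in the deep class. ATP5MD, a small ATP synthase subunit, was at 744 and 738 against 559 and 502, a difference of 0.51 ± 0.10 (edgeR adjusted p = 0.000861). UQCR10 and NDUFS5, subunits of complexes III and I, were higher by 0.37 and 0.32. COX6A1 was at 314 in both libraries against 400 and 418, and its difference of -0.39 was not called (adjusted p = 0.0524). Without the library block 2 of these genes were called higher, and without the mitochondria-poor sum of hESC 1 or hESC 2 the same edgeR test called 3 or 0.

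Of 17 genes for mitochondrial maintenance and import, 3 were called higher and none lower, against 2.32% and 8.6% of all genes. SLC25A5, an ADP/ATP carrier, was at 893 and 831 CPM against 610 and 645. VDAC1, a channel of the outer membrane, was at 686 and 535 against 433 and 429, and HSPE1, a matrix chaperonin, rose by 0.24. TFAM, which packages mitochondrial DNA, gave a difference of -0.01 without a call.

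Clustered histone mRNAs had the highest median difference of the 17 lists. Their transcripts are made in S phase and mostly end in a stem-loop in place of a poly(A) tail. Summed over the list, they were at 7688 and 4241 CPM in the mitochondria-poor barcodes, 3692 and 2887 in the reference, and 4356 and 3123 in the deep class. The rise was not shared by all barcodes. The list's share was above the reference median in 100 of 149 and 141 of 250 mitochondria-poor barcodes, and below it in 49 and 109. Of 26 tested, 8 were called higher (2.32% of all genes were) and none lower, with a median of 0.61, and TMM scaling gave 10 higher. HIST1H1D, a linker histone at chromosome 6, 26234268 to 26234933, was at 702 and 622 against 281 and 359, a difference of 0.96 ± 0.13 (edgeR adjusted p = 1.52e-06). HIST1H4C, a core histone, was at 3573 and 1872 against 1894 and 1269, with a difference of 0.74 ± 0.08 (edgeR adjusted p = 1.31e-08). HIST1H3B rose by 1.33, HIST1H1B by 1.13 and HIST1H1E by 0.96, and in each the rise was larger in hESC 1. Histone copies are near-identical in sequence, so counts may be split among them. Leaving out the mitochondria-poor sum of hESC 1 or hESC 2 left 3 or 4 histone calls, and leaving out the library block left 3.

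Other S phase genes gave no call. Of 17 tested, which include the MCM helicase and nucleotide synthesis enzymes, 0 were called in either direction by edgeR, with log2 differences from -0.66 (SLBP, the histone stem-loop binding protein) to 0.59 (DTL). Summed, they were at 1132 and 1291 CPM against 1465 and 1372. Of 19 G2/M genes, 3 were called lower (8.6% of all genes were). These were CENPE, a kinetochore motor (-1.66), CENPF, a kinetochore protein (-1.33), and MKI67, the proliferation antigen Ki-67 (-1.0). CENPF was at 266 and 256 against 644 and 661. Other mitotic genes, among them CCNB1 (0.25) and CDK1 (0.27), were not called.

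Pluripotency genes were mixed. Of 20 tested, 9 were called lower (8.6% of all genes were) and none higher, with a median of -0.42. With TMM scaling 7 were lower (5.66% of all genes were) and 1 higher. DESeq2, and the edgeR fit without the mitochondria-poor sum of hESC 2, each called 4 lower. POU5F1 (OCT4), the central pluripotency factor at chromosome 6, 31164337 to 31180731, was at 1324 and 1372 CPM against 1191 and 1196 in the reference and 1295 and 1282 in the deep class. Its difference of 0.18 was not called (edgeR adjusted p = 0.0986) but was called with TMM scaling (0.38). SOX2, its partner on DNA, was at 144 and 119 against 388 and 289, and fell by 1.33 ± 0.19 (edgeR adjusted p = 3.4e-06). PODXL, a surface sialomucin that carries stem cell antigens, was at 58.5 and 84.3 against 259 and 262, a log2 difference of -1.8 ± 0.22. TDGF1, the anchored NODAL co-receptor (-0.89), EPCAM, an adhesion molecule (-0.76), and SFRP2, a secreted WNT modulator (-0.64), also fell. So did L1TD1, an RNA-binding protein (-0.65), and TERF1, a telomere protein (-0.47). The call for EPCAM was lost with TMM scaling (adjusted p = 0.0504). NANOG (-0.29), LIN28A (-0.21) and DNMT3B (-0.46) were not called.

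The label of stem cell was checked against markers. All 8 markers of pluripotent cells were detected in the mitochondria-poor barcodes of both libraries, with a summed level of 3589 and 3916 CPM against 4688 and 4770 in the reference. Detection asked only for 1 UMI in the sum of an hESC library, so it is a weak check. Of the 8, 3 were called lower and none higher, against 8.6% of all genes called lower. Listed markers of most other lineages were near 0. Only 4 of 12 mesoderm and mesenchyme and 5 of 12 trophectoderm and amnion markers were listed for the hESC libraries. For endoderm it was 4 of 10, and for endothelium and blood 3 of 12. The numbers below count unlisted markers as having no UMI. In the mitochondria-poor barcodes, 2 and 3 of 12 mesoderm and mesenchyme markers had a UMI (10.6 and 29.1 CPM in sum, 77.7 and 77.8 in the reference). For trophectoderm and amnion it was 3 of 12 in each (37.2 and 17.4, against 37.0 and 31.8), for endoderm 1 of 10 in each (5.32 and 5.81, against 3.70 and 6.35), and for endothelium and blood 1 of 12 in each (5.32 and 14.5, against 25.9 and 44.5). Neuroectoderm markers, of which NES and TUBB3 are also used by stem cells, were at 234 and 189 against 196 and 222. SOX10, NEUROD1, MIXL1 and TEK were at 0. Of these markers, COL1A2 (-2.1) and KDR (-1.79) were called, both lower, and KDR lost its call with TMM scaling. Many other defining markers, such as TBXT, CDX2 and SOX17, were not analysed here.

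Of 15 glycolysis genes tested, 4 were called higher and 1 lower, against 2.32% and 8.6% of all genes, and 10 were not called (median 0.07). LDHA, lactate dehydrogenase A, was at 691 and 666 CPM against 459 and 456, a difference of 0.56 ± 0.11 (edgeR adjusted p = 0.000571). PGK1, ENO1 and GAPDH were higher by 0.41, 0.28 and 0.20, but these 3 were not called in barcodes of matched depth (600 to 2000 UMIs). SLC2A3, the membrane glucose transporter GLUT3, was at 53.2 and 108 against 178 and 235 with a log2 difference of -1.29. GAPDH was below the reference in hESC 1 (1978 against 2124) and above it in hESC 2 (2930 against 2272), so the libraries went opposite ways.

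Of 16 cytoskeletal genes, 3 were called higher and 1 lower, against 2.32% and 8.6% of all genes, with a median of 0.06. TMSB4X, which binds actin monomers, was at 5657 and 5084 CPM against 4669 and 4140, and STMN1, a tubulin-binding protein, rose by 0.26. ACTB, beta-actin, was at 1872 and 2439 against 2523 and 2949, a log2 difference of -0.33. Its call was lost with TMM scaling (-0.14, edgeR adjusted p = 0.126). ACTG1, gamma-actin, rose by 0.19, but its call was lost at matched depth (0.14, edgeR adjusted p = 0.181). Without the mitochondria-poor sum of hESC 2, ACTG1 was at -0.0. Of 15 p53 targets and 11 stress and immediate early genes, edgeR called 0 in either direction, and TMM scaling called 1 p53 target higher. Their medians were -0.11 and -0.14.

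Beyond the lists, 4 of the 10 largest rises were of histones. MT1X, a metallothionein, was at 505 and 250 CPM against 215 and 159, a difference of 0.91, but in barcodes of matched depth it was 0.14 with adjusted p = 0.746. TIMMDC1 and NDUFAF2, assembly factors of respiratory complex I, rose by 0.95 and 0.75. ZCCHC17, a ribosome-associated zinc finger protein, rose by 0.78, ISOC2 by 0.77 and the RNA helicase DDX24 by 0.73. TIMMDC1 and ZCCHC17 were not called at matched depth (adjusted p = 0.184 and 0.209).

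**Figure D3:**
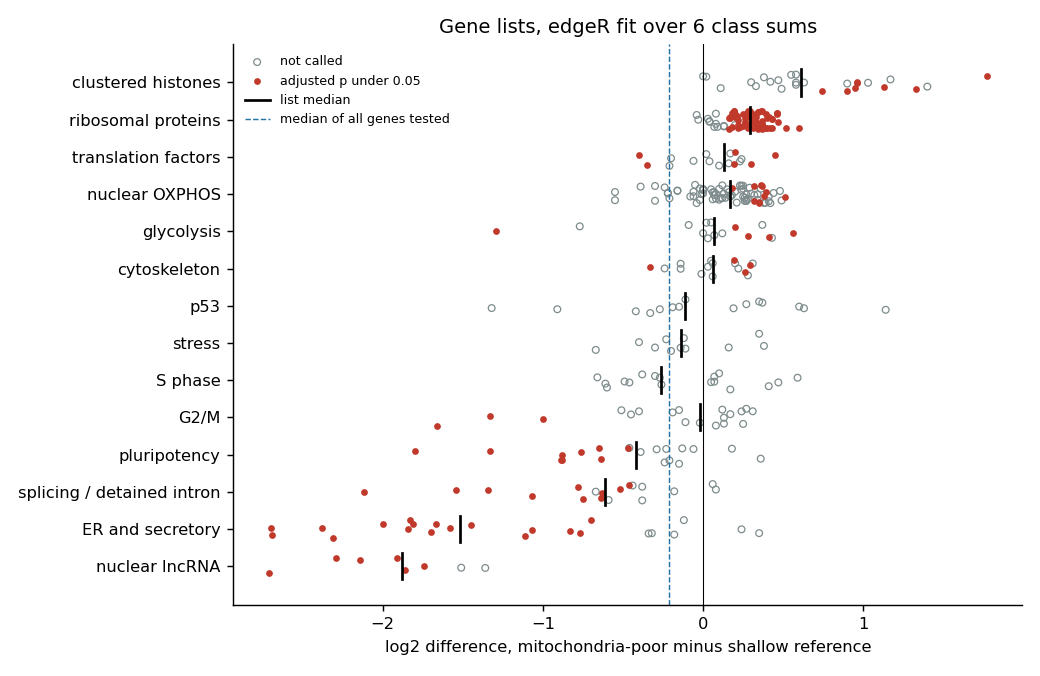
Log2 difference between mitochondria-poor and shallow reference barcodes for the tested genes of 14 lists, with 1 point per gene, filled where the adjusted p was under 0.05, black bars for list medians and a dashed line at the median of all genes (-0.21). LAMB1, with 0 UMIs, is counted in its list's median but not drawn; the nuclear noncoding and ER lists lie lowest and the histones highest.

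Differences followed transcript length across genes. Length was taken as the longest basic transcript in GENCODE 29, which 6572 of the 6639 genes (99.0%) had. The median log2 difference was 0.17 for the 383 genes under 1000 bases, 0.06 from 1000 to 2000 bases, -0.15 from 2000 to 3500, -0.36 from 3500 to 6000, and -0.64 for the 1294 genes of 6000 bases or more. Among the shortest genes 13.8% were called higher and 1.04% lower, and among the longest 0.464% and 19.3%. Across genes, which are not independent replicates and which share the same 6 sums, Spearman's rho was -0.42.

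The lists differed from the medians of their length ranges, which match length only coarsely. Of the 24 ER and secretory genes, 20 lay below the median of their length range, by a median of 1.26 log2 units (difference -1.26). All 8 nuclear noncoding RNAs lay below theirs, with a median difference of -1.44. Their median length was 11205 bases, and the range of 6000 bases or more has no upper limit, so length is not closely matched there. Of 84 ribosomal protein genes, 78 lay above the median of their range, with a median difference of 0.22, as did 23 of 26 histones, with 0.52. The longest basic transcript need not be the one expressed. By this length the ribosomal protein genes had a median of 1170 bases. Their median log2 difference was 0.29, beside 0.17 for tested genes under 1000 bases and 0.06 from 1000 to 2000. Pluripotency genes were closer to the medians of their ranges, with 13 below and 6 above and a median difference of -0.20. The G2/M genes that fell, CENPE, CENPF and MKI67, have long transcripts. What part of the list differences goes with length was not tested.

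**Figure D4:**
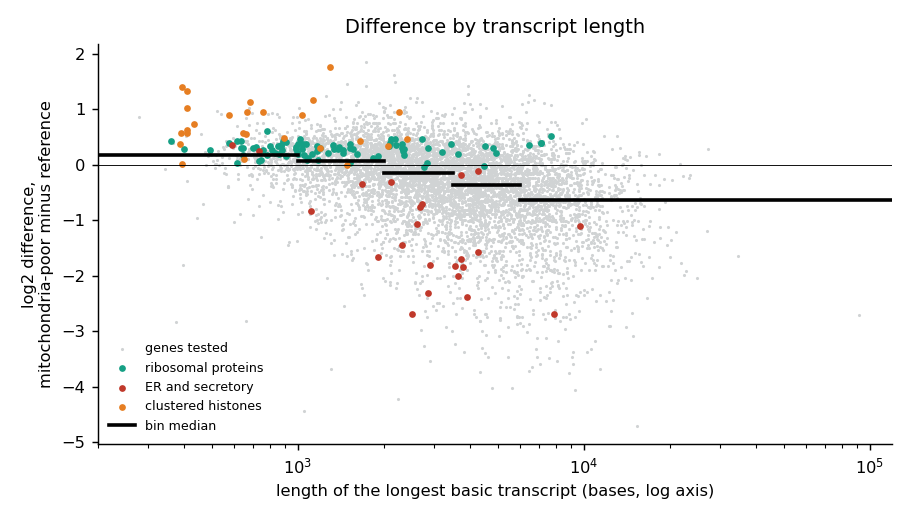
Log2 difference (mitochondria-poor minus reference) against the length of the longest basic transcript in bases (log axis), with 1 point per gene that had a UMI in the mitochondria-poor barcodes, 3 lists in color and black bars at the median of each length range. Medians step from 0.17 in the shortest to -0.64 in the longest range, and most ER and secretory genes lie below the bars.

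Among barcodes of 600 to 2000 UMIs, levels differed on either side of the 2% limit. MALAT1 was at 1510 and 1048 CPM in barcodes under 0.5% mitochondrial UMIs and at 2713 and 1976 from 0.5 to 2%. From 2 to 5% it was at 7061 and 8374, from 5 to 10% at 6967 and 8087, and from 10 to 20% at 5130 and 5622. The rise of MALAT1 between neighbouring ranges was thus largest across the limit that chose the barcodes, although these ranges differ in width. The MALAT1 level was lower again at the highest mitochondrial shares. The ER and secretory list was at 2825 and 2840 under 0.5%, at 2922 and 3180 from 0.5 to 2%, and at 4035 and 5919 from 2 to 5%. Above that it stayed between 5015 and 6001. Ribosomal protein mRNAs went from 355968 and 335000 under 0.5% to 286042 and 245437 from 2 to 5%. Histones went from 8774 and 4528 under 0.5% to 5817 and 3307 from 0.5 to 2% and 5043 and 3246 from 2 to 5%, so most of their change lay below the limit.

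**Figure D5:**
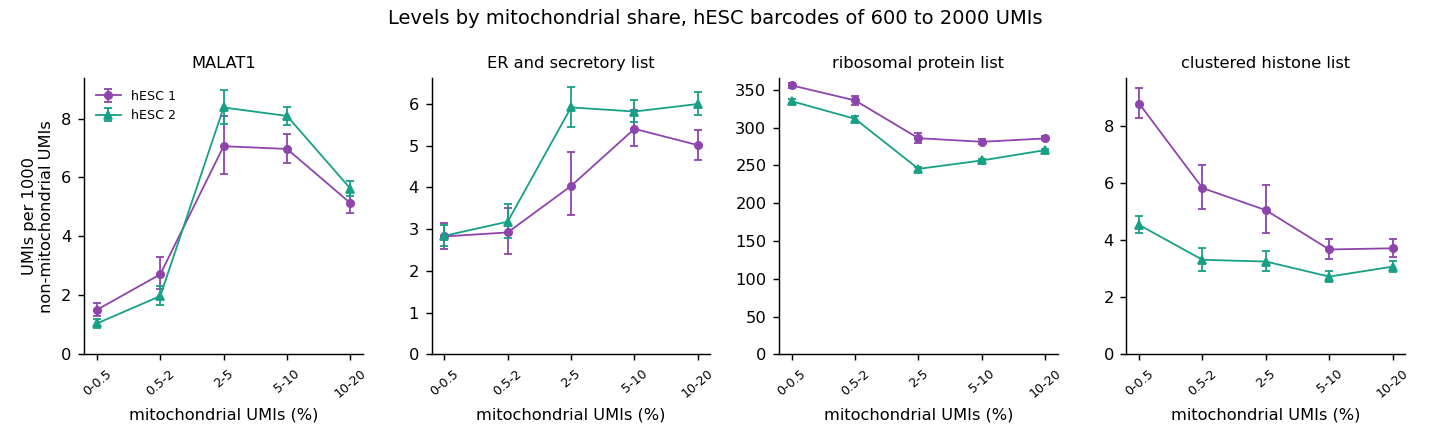
Summed level, in UMIs per 1000 non-mitochondrial UMIs, against the range of mitochondrial share in percent for hESC barcodes of 600 to 2000 UMIs, with 1 line per library and exact 95% counting intervals as bars. MALAT1 and the ER list are higher from 2 to 5% than from 0.5 to 2% in both libraries, with overlapping intervals for the ER list in hESC 1, and ribosomal protein mRNAs are lower.

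The 15 barcodes just inside the limit (1.5 to 2%) had MALAT1 at 9265 CPM and the ER list at 4633, and the 24 just outside it (2 to 2.5%) had 12081 and 6014. Their depths ran from 690 to 6375 and from 831 to 7600 UMIs. The MALAT1 values rested in large part on a few deep barcodes. The comparison was then limited to the 600 to 2000 UMIs of the reference, a step taken after seeing the data. There MALAT1 was at 3995 in 13 barcodes just inside (counting interval 2984 to 5239) and at 5576 in 17 just outside (4587 to 6716). The ER list was at 4303 (3250 to 5587) and 5024 (4088 to 6110). For both, the counting intervals just inside and just outside overlapped.

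The mitochondria-poor barcodes also differed by depth. In hESC 1, MALAT1 was at 1937 CPM in the 44 barcodes under 1000 UMIs, at 1751 in the 95 of 1000 to 2000, and at 1017 in the 10 of 2000 to 5000. In hESC 2 it was at 1269, 1335 and 2172 in 71, 155 and 21 barcodes of the same ranges. The remaining 3 barcodes of hESC 2, with 5000 UMIs or more, stood apart: MALAT1 was at 14168 and the median mitochondrial share was 1.46%. These 3 barcodes gave 243 of the 723 MALAT1 UMIs of their class in hESC 2. Without them the MALAT1 difference from the reference was -2.06, against -1.74 with them, and 749 genes were called, 160 higher and 589 lower. At matched depth (600 to 2000 UMIs) it was -2.10, with 161 genes higher and 577 lower.

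The blastoid barcodes that met the same limits were not used to choose the class, but 11 and 15 barcodes allow values only. MALAT1 was at 9185 CPM in blastoid 3 (counting interval 7821 to 10718) and 10419 in blastoid 4 (9172 to 11788), against 23718 and 30512 in shallow reference barcodes of the same libraries. Ribosomal protein mRNAs were at 308860 and 326966 against 245223 and 259892. For both, the blastoid libraries went the same way as the hESC libraries. The ER and secretory list was at 3822 against 6671 in blastoid 3, but at 5664 against 5743 in blastoid 4, where the counting intervals overlapped. Histones were higher in blastoid 3 (3879 against 2660) and lower in blastoid 4 (1530 against 2513), with counting intervals that overlapped in both. Mesoderm and mesenchyme markers, which blastoid cells express, were at 1826 and 1571 in these barcodes against 2812 and 2485. Their part in the values was not tested.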

How the data were processed

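Raw UMI counts per gene symbol and barcode were deposited by the authors, 1 table for each of 4 libraries. Cell Ranger and GRCh38 are named in the submitters' processing notes, without a version; the annotation and any filter are not given in the sources used here. The barcodes, gene lists and tests were chosen with earlier results of these data known.

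Non-mitochondrial UMIs were summed by class and hESC library (6 sums). They were fitted in edgeR 4.0.16 (R 4.3.3; glmQLFit and glmQLFTest, filterByExpr, library as block, total non-mitochondrial UMIs as library size, 2 residual degrees of freedom). Both classes come from the same libraries; deviations of the sums of 1 library correlated at 0.16 to 0.37 over 2556 genes. The SE is the log2 difference divided by the square root of F. Named genes are those of 17 lists and 6 marker lists and, per comparison, the 10 largest rises and falls among called genes with a mean log2 level of at least 6 and sums that do not overlap, with XIST and Y-linked genes left out. CHCHD2 is not analysed here. Scrublet in scanpy 1.11.5 called doublets (expected rate 6%), which were left in. Positions and lengths come from GENCODE 29, matched by symbol. Data were simulated with the same totals, the same small spread for all genes and no difference between libraries. There, 78% of genes changed by 1 on the log2 scale were recovered, and 4 of 6748 unchanged genes were called. The changed genes were drawn only from those well counted in the smallest sum, so recovery of genes with few UMIs was not tested. Alternatives were TMM, DESeq2 1.42.0, no filter, no block, thinned sums, other limits and left-out sums; the limit of 5000 UMIs was chosen after seeing the data.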

Additional observations from a re-analysis of the deposited data

Results flagged for a closer look

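For 3 of 16 gene lists, the difference between mitochondria-poor and shallow reference barcodes went one way in both hESC libraries and the other way in both blastoid libraries. The difference between the groups was not tested, and the blastoid values rest on 11 and 15 barcodes. The noncoding RNAs typical of hESC gave log2 ratios of -0.06 and -0.12 in hESC 1 and hESC 2 and of 1.61 and 1.39 in blastoid 3 and blastoid 4, the latter on 7 UMIs in each library. Glycolysis genes gave 0.07 and 0.19 in the hESC libraries and -0.06 and -0.01 in the blastoid libraries. S phase genes gave -0.37 and -0.09 in the hESC libraries and 0.59 and 0.28 in the blastoid libraries.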

How the results depend on the processing

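The number of calls depended on the settings. Against the reference, 725 genes were called, 154 higher and 571 lower. TMM scaling gave 396 higher and 376 lower, DESeq2 gave 458 (290 and 168), and leaving out the replicate block gave 461, of which 52 were higher. Requiring a log2 difference past 1 gave 454, of which 6 were higher, thinned sums gave 433 with 298 lower, a 3% mitochondrial limit gave 477 with 356 lower, and a minimum of 700 genes gave 237 (79 and 158). Leaving out 1 class sum gave 173 to 622 calls, 52 to 125 higher and 121 to 497 lower. Against the deep class, 1597 genes were called, 322 higher and 1275 lower. TMM scaling gave 783 higher and 692 lower, DESeq2 gave 796 (529 and 267), no replicate block gave 186 higher, the log2 limit gave 895 with 11 higher, thinned sums gave 642 (171 and 471), and 700 genes gave 699 (198 and 501). Leaving out 1 class sum gave 383 to 1621 calls, 116 to 325 higher and 267 to 1314 lower. The mean share of mitochondria-poor barcodes was 7.23%, and it was 8.18% at a 3% limit, 3.42% at 700 genes and 11.3% over all deposited barcodes.

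Of 725 genes called against the reference, TMM scaling kept 530 with the same direction and DESeq2 kept 320. MALAT1 was at -0.64 with a 3% limit and at -2.38 with a 1% limit, and MT1X was at 2.0 and 0.74; the cause was not tested. Directions changed for few of the genes named, and those changes were small. SSR3 was at 0.01 with TMM scaling and with DESeq2, at 0.0 with the 3% limit and at 0.09 with 700 genes. SPCS1 was at 0.08, 0.1 and 0.11 with TMM scaling, DESeq2 and 700 genes. With the 3% limit MIAT was at 0.19 and SRSF3 at -0.11. With 700 genes SEC61G was at -0.14, NANOG at 0.07 and SRSF3 at -0.08. When sums were left out, GAPDH lay between -0.1 and 0.37, ACTG1 between -0.0 and 0.3, and NANOG between -0.44 and 0.02, and GAPDH was at -0.03 without the mitochondria-poor sum of hESC 2.

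Counting depth limits genes with few UMIs: 3 UMIs correspond to a level of 16 and 8.72 CPM in the mitochondria-poor sums. The sums of 2 libraries leave 2 residual degrees of freedom.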
